A study of Mus musculus with 6 samples.

Results

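Mapk13 and 7 other genes of the p38 kinase pathway were followed in RNA of whole mouse testes. The genes were the 4 p38 kinases themselves, Mapk11, Mapk12, Mapk13 and Mapk14, the activating kinases Map2k3 and Map2k6, and the substrate kinases Mapkapk2 and Mapkapk3. All probe sets that the platform annotation assigned to one of these symbols were taken, which gave 17 of the 45037 probe sets on the array that are not controls, for 8 of 18193 genes. Mapk14 had 6 probe sets, Mapk11, Mapk12, Map2k3 and Mapkapk3 had 2 each, and Mapk13, Map2k6 and Mapkapk2 had 1 each.

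The study hybridised 6 Affymetrix arrays, 3 from SCARKO-jsd mice and 3 from jsd mice, all 12 weeks old. The jsd (juvenile spermatogonial depletion) mutation in Utp14b was carried by both groups, and adult tubules then hold Sertoli cells and spermatogonia with few later stages. In SCARKO-jsd mice a gene was in addition knocked out conditionally in Sertoli cells, the nurse cells of the tubule. The labels give neither the driver of the knockout nor the strain, and they name no littermates. Values were log2 expression after RMA, and each difference is SCARKO-jsd minus jsd on that scale, so that a difference of 1 is a doubling.

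In the p38 pathway, stress and cytokine signals activate MAP3 kinases, which phosphorylate the MAP2 kinases MAP2K3 and MAP2K6, and these switch on the p38 kinases by phosphorylating a Thr-Gly-Tyr motif. The p38 kinases then phosphorylate transcription factors and further kinases such as MK2 and MK3, which control mRNA stability and the actin cytoskeleton. Mapk14 encodes p38 alpha, the broadly expressed form, Mapk11 p38 beta, Mapk12 p38 gamma and Mapk13 p38 delta. In rat testes p38 signalling is known for acting on the junctions between Sertoli cells. Arrays measure RNA, so none of the values below speak of phosphorylation or kinase activity.

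The windows before the starts of the p38 genes are shown because these genes lie in adjacent pairs, Mapk14 beside Mapk13 on chromosome 17 and Mapk12 beside Mapk11 on chromosome 15, and Mapk13 was the 1 of the 4 with a large difference between the groups. Sequences of 250 bases before the first start listed for each gene come from RefSeq (GRCm38.p6), 5′ to 3′ on the gene's strand, with GC boxes (GGGCGG, or CCGCCC on the other strand), a motif bound by SP1-type factors, in capitals.
Mapk13 (chr17:28769067-28769316, plus strand): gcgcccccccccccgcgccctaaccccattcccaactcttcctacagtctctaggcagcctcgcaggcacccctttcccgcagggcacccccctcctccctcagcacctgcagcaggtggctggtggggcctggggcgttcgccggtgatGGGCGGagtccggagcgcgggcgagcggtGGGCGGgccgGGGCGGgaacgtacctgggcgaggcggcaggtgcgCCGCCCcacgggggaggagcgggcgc
Mapk14 (chr17:28691092-28691341, plus strand): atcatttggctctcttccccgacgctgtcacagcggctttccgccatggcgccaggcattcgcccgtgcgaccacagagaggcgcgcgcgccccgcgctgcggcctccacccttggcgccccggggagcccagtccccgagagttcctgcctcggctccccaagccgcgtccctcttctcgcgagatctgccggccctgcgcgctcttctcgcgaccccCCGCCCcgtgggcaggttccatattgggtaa
Mapk11 (chr15:89149607-89149856, minus strand): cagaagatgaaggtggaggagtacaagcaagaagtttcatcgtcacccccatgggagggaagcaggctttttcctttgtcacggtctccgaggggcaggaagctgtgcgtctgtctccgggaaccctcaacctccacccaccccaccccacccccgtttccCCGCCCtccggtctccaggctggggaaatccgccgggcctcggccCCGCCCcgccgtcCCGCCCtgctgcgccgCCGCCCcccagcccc
Mapk12 (chr15:89140704-89140953, minus strand): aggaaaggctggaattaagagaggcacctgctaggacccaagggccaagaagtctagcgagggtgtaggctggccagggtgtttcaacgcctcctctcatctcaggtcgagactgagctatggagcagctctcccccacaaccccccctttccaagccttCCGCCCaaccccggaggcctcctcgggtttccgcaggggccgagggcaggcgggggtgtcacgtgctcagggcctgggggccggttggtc

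The Mapk13 window was the richest in G and C of these 4, at 76% against 70.4% for Mapk14, 68% for Mapk11 and 64.4% for Mapk12, and the median over 32851 such windows was 52.4%. It held 4 GC boxes, at 100, 71, 61 and 26 bases before the start, as did that of Mapk11 with 4, while those of Mapk14 and Mapk12 held 1 each. Of all windows, 32.7% held at least 1 GC box. A half-site of steroid hormone receptors (AGAACA or TGTTCT, in 16.1% of all windows), an AP-1 motif (TGANTCA, in 6.75%) and a cAMP response element (TGACGTCA, in 1.55%) were searched on both strands and had no match in the 4 windows. No motif printed in capitals overlapped another. These matches describe letters in the windows, and the arrays did not measure what binds there.

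Mapk13 was much higher in SCARKO-jsd testes than in jsd testes. On its probe set, 1448871_at, log2 expression was 8.95, 9.01 and 8.65 in SCARKO-jsd 1, 2 and 3, against 5.47, 6.16 and 5.70 in jsd 1, 2 and 3. All SCARKO-jsd arrays lay above all jsd arrays, and the lowest SCARKO-jsd value exceeded the highest jsd value by 2.49. Means were 8.87 ± 0.19 in SCARKO-jsd and 5.78 ± 0.35 in jsd testes (SD, n = 3 each), a difference of 3.09 ± 0.20 (SE), or 8.54-fold. Mapk13 was selected on that difference, and the other genes were chosen by their place in its pathway, so the differences of all 8 genes are given as descriptions and not as tests. No probe set on the array had a larger rise. The jsd mean lay under 6.64, the limit below which the lower 40% of genes fall, so Mapk13 was dim in jsd testes and the size of the fold is uncertain. With any 1 array left out the difference lay between 2.94 and 3.29, and without SCARKO-jsd 2, an array that stood apart from the others, it was 3.02.

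**Figure D1:**
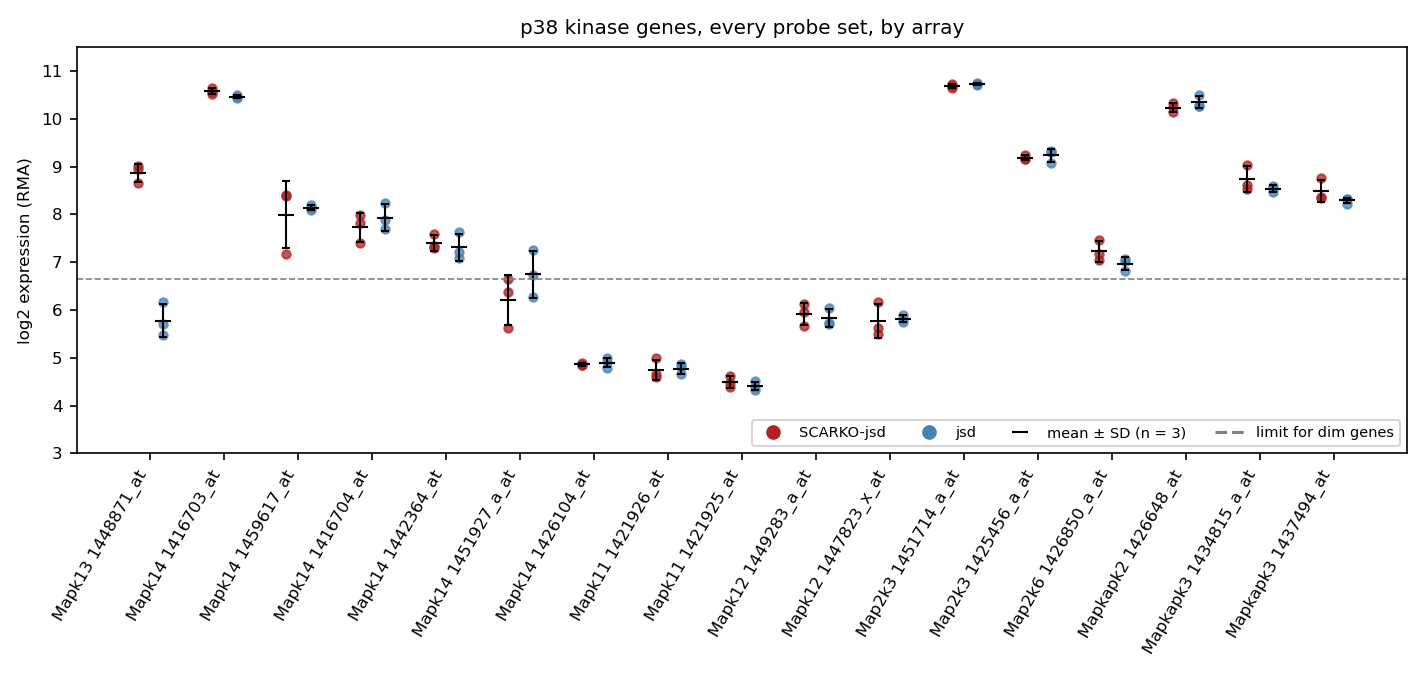
Log2 expression of all 17 probe sets of the p38 kinase genes (y axis), with SCARKO-jsd arrays left of jsd arrays for each probe set (x axis). Points are arrays, black marks are means ± SD (n = 3) and the dashed line is the limit for dim genes (6.64). On the Mapk13 probe set the 3 SCARKO-jsd arrays lie at 8.65 to 9.01 and the 3 jsd arrays at 5.47 to 6.16.

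SCARKO-jsd 2 stood apart before any gene was compared. Its correlation with the other arrays across probe sets was at most 0.975, while each of the other 5 arrays reached at least 0.995 with one of the others. Its gap between 3' and 5' control probe sets, a sign of RNA quality, was 1.66 for beta-actin, against 0.70 to 0.98 in the other 5 arrays, and 0.64 for Gapdh, against -0.29 to -0.10. For Mapk13, SCARKO-jsd 2 (9.01) was close to SCARKO-jsd 1 (8.95). Of the 16 probe sets of the other genes, SCARKO-jsd 2 was outside the range of the other 5 arrays on 9, highest on 6 and lowest on 3. It was outside that range on 58.6% of all probe sets.

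Mapk14, which encodes p38 alpha, differed little on its brightest probe set. On 1416703_at, log2 expression was 10.56, 10.52 and 10.65 in SCARKO-jsd 1, 2 and 3, against 10.49, 10.44 and 10.46 in jsd 1, 2 and 3. The groups did not overlap here, although the difference was only 0.11 ± 0.077 (SE), with a 95% interval of -0.071 to 0.30. On 1442364_at it was 0.10 ± 0.16, with overlapping groups. The dimmest probe set, 1426104_at, lay between 4.79 and 4.99 in all arrays.

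Mapk14 had 3 further probe sets on which SCARKO-jsd 2 was the lowest array. On 1459617_at, SCARKO-jsd 1, 2 and 3 were at 8.40, 7.18 and 8.39, against 8.19, 8.10 and 8.13 in jsd 1, 2 and 3. SCARKO-jsd 1 and 3 thus lay above all jsd arrays and SCARKO-jsd 2 below them, and the difference of -0.15 ± 0.33 (SE) turned to 0.26 ± 0.087 without SCARKO-jsd 2. On 1451927_a_at, SCARKO-jsd 1, 2 and 3 were at 6.64, 5.62 and 6.37, against 6.73, 7.25 and 6.27 in jsd 1, 2 and 3, a difference of -0.54 ± 0.34 that was -0.25 without SCARKO-jsd 2. On 1416704_at, SCARKO-jsd 1, 2 and 3 were at 7.98, 7.39 and 7.81, against 7.88, 8.23 and 7.69 in jsd 1, 2 and 3, and the difference of -0.20 ± 0.20 was -0.036 without SCARKO-jsd 2. The groups overlapped on all 3. The part of the 3' to 5' gap of SCARKO-jsd 2 in these values was not tested.

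The genes of p38 beta and p38 gamma were dim in both groups. On the brighter Mapk11 probe set, 1421926_at, log2 expression was 4.60, 4.99 and 4.66 in SCARKO-jsd 1, 2 and 3, against 4.80, 4.65 and 4.87 in jsd 1, 2 and 3, and the difference on the other, 1421925_at, was 0.083 ± 0.10 (SE). On the brighter Mapk12 probe set, 1449283_a_at, it was 5.66, 6.13 and 5.95 in SCARKO-jsd 1, 2 and 3, against 6.05, 5.73 and 5.70 in jsd 1, 2 and 3. The other Mapk12 probe set, 1447823_x_at, was at 5.50, 6.17 and 5.63 in SCARKO-jsd 1, 2 and 3, against 5.82, 5.89 and 5.75 in jsd 1, 2 and 3, and the x in its name marks probes that can also bind other transcripts. Its difference of -0.054 ± 0.18 was -0.26 ± 0.10 without SCARKO-jsd 2, where the other SCARKO-jsd arrays lay below all jsd arrays. With all 6 arrays the groups overlapped on all of these, and all 4 probe sets lay under the dim limit, where a change in RNA is poorly measured.

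Among the activating kinases, Map2k3 was bright and nearly equal between the groups. On 1451714_a_at, log2 expression was 10.64, 10.73 and 10.68 in SCARKO-jsd 1, 2 and 3, against 10.70, 10.75 and 10.72 in jsd 1, 2 and 3. This is a difference of -0.039 ± 0.075 (SE; 95% interval -0.22 to 0.14), and on 1425456_a_at it was -0.05 ± 0.10. Map2k6 was at 7.04, 7.47 and 7.16 in SCARKO-jsd 1, 2 and 3, against 7.03, 6.82 and 7.06 in jsd 1, 2 and 3. SCARKO-jsd 1 lay within the range of the jsd arrays, and the difference was 0.25 ± 0.14 (95% interval -0.074 to 0.58), or 0.13 without SCARKO-jsd 2.

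The genes of the substrate kinases MK2 and MK3 also differed by small amounts. Mapkapk2 was at 10.13, 10.32 and 10.24 in SCARKO-jsd 1, 2 and 3, against 10.50, 10.27 and 10.27 in jsd 1, 2 and 3, a difference of -0.12 ± 0.10 (SE) with overlapping groups. Mapkapk3 on 1434815_a_at was at 8.62, 9.04 and 8.53 in SCARKO-jsd 1, 2 and 3, against 8.60, 8.46 and 8.55 in jsd 1, 2 and 3. SCARKO-jsd 2 was the high array, and the difference of 0.19 ± 0.14 was 0.039 without it. On the other Mapkapk3 probe set, 1437494_at, the groups did not overlap, with 8.36, 8.76 and 8.35 in SCARKO-jsd 1, 2 and 3 against 8.33, 8.22 and 8.32 in jsd 1, 2 and 3. There the difference of 0.20 ± 0.13 was 0.064 without SCARKO-jsd 2.

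Over the 16 probe sets other than that of Mapk13, differences ran from -0.54 to 0.25 with a median of -0.03, 7 higher and 9 lower in SCARKO-jsd, and the median over all probe sets was 0.013. The widest of their 95% intervals reached -1.35 and 0.64, both on Mapk14. A difference past 1 log2 unit in either direction was found for 392 probe sets, 0.87% of all, and for 1 of the 17, that of Mapk13. With limma and a threshold of 0.05 on the p adjusted by Benjamini-Hochberg over all probe sets, 1 of the 17 was called, and 0.280% of all probe sets were (126 of 45037, 56 higher and 70 lower). Nothing is read from that count, since the same contrast chose Mapk13. Groups did not overlap on 3 of the 17 probe sets, and on 16.9% of all. The call of Mapk13 ended without jsd 1, jsd 3 or SCARKO-jsd 1, where 0, 25 and 19 probe sets of the whole array were called, and the number called was 3 without jsd 2, 14 without SCARKO-jsd 3 and 627 without SCARKO-jsd 2.

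**Figure D2:**
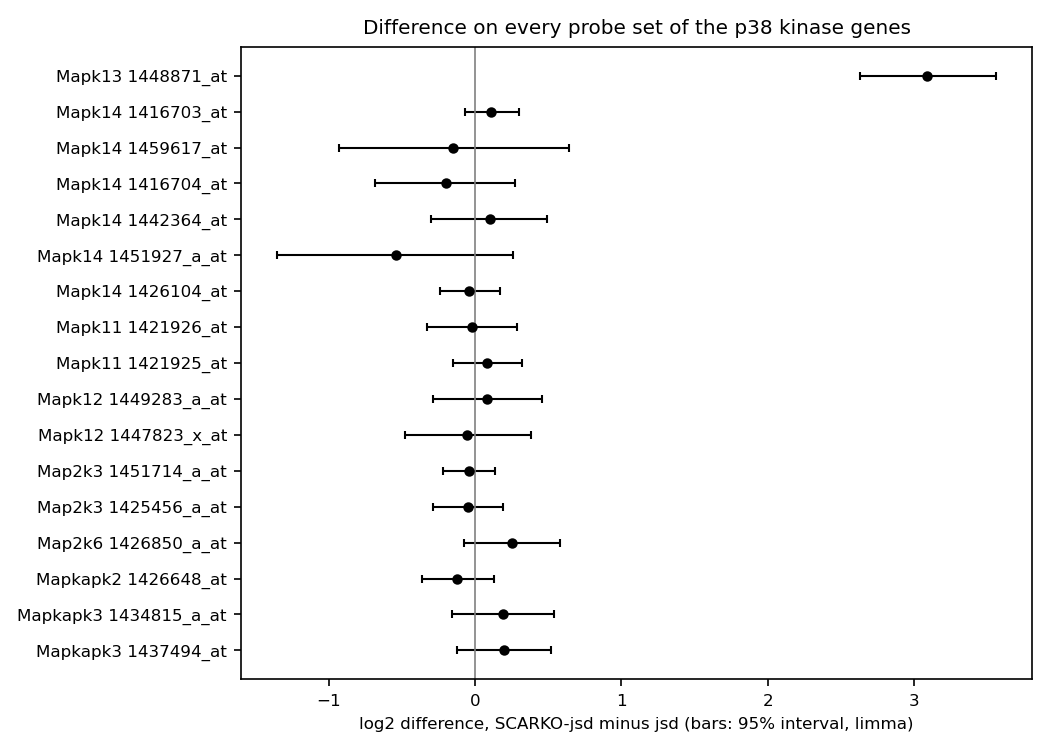
Log2 difference, SCARKO-jsd minus jsd, on each of the 17 probe sets (x axis), with bars for the 95% interval from limma. The Mapk13 difference is 3.09 with an interval of 2.63 to 3.56, and those of the other 16 probe sets lie between -0.54 and 0.25, with intervals that all include 0.

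Mapk13 was selected for a rise that no other probe set exceeded, so its neighbours on chromosome 17 could not have shown a larger one. The 3 nearest annotated genes on each side that have a probe set are given as a description. On the side of Mapk14 these were Mapk14 itself, Slc26a8, an anion transporter of male germ cells, and Srpk1, a kinase of splicing factors, and the brightest probe sets of the last 2 had differences of 0.063 ± 0.11 and -0.13 ± 0.21 (SE). On the other side, Brpf3, a subunit of histone acetyltransferase complexes, was at 9.20, 9.51 and 9.18 in SCARKO-jsd 1, 2 and 3, against 9.10, 9.02 and 8.84 in jsd 1, 2 and 3. Both Brpf3 probe sets had groups that did not overlap, with differences of 0.31 and 0.30, and neither was called by limma (Benjamini-Hochberg adjusted p = 0.474 and 0.303). Pnpla1 and Bnip5 had differences of -0.11 and -0.16 with overlapping groups.

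Of the other genes of the pathway, 110 were listed by role and 101 of them were measured. On the brightest probe set of each gene, 0 rose and 0 fell by that test, where 0.484% of all 18193 genes were called, 0.247% higher and 0.236% lower. At an unadjusted p under 0.05 there were 12 of the 101, or 11.9%, against 13.2% of all genes, and the groups did not overlap for 15, or 14.9%, against 20.5% of all genes. The median difference was -0.045, and it was 0.044 over all genes. Without SCARKO-jsd 2, 2 of the 101 were called, or 1.98%, against 2.0% of all genes (364 of 18193). These were Hspb1 and Hspb8, both lower in SCARKO-jsd.

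Hspb1, the small heat shock protein that MK2 phosphorylates, lay at the threshold. On its brightest probe set, 1422943_a_at, log2 expression was 12.10, 12.32 and 12.21 in SCARKO-jsd 1, 2 and 3, against 13.13, 12.93 and 12.92 in jsd 1, 2 and 3. All SCARKO-jsd arrays lay below all jsd arrays, and the difference of -0.79 ± 0.10 (SE) missed the threshold (limma, Benjamini-Hochberg adjusted p = 0.0523). Its other probe set, 1425964_x_at, passed with a difference of -0.81 ± 0.10 (adjusted p = 0.0482). Over the alternative settings the adjusted p of the brightest probe set lay between 0.000827 and 0.28, and it was 0.0172 without SCARKO-jsd 2.

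Hspb8, another small heat shock protein, chosen after its values were seen, had 3 probe sets that all lay lower in SCARKO-jsd. On the brightest, 1417013_at, it was at 7.81, 8.85 and 8.32 in SCARKO-jsd 1, 2 and 3, against 9.00, 9.15 and 9.36 in jsd 1, 2 and 3. The groups did not overlap, and the difference of -0.84 ± 0.26 (SE) did not pass by limma (Benjamini-Hochberg adjusted p = 0.328), but did without SCARKO-jsd 2 (0.0345). The other 2 probe sets had differences of -0.71 and -0.90.

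Krt8, a keratin that p38 kinases phosphorylate in epithelial cells, also chosen after its values were seen, went the other way. On 1420647_a_at it was at 6.43, 7.53 and 6.95 in SCARKO-jsd 1, 2 and 3, against 6.27, 6.22 and 6.07 in jsd 1, 2 and 3. The groups did not overlap on any of its 3 probe sets, whose means were all under the dim limit, and the difference of 0.79 ± 0.26 (SE) did not pass by limma (Benjamini-Hochberg adjusted p = 0.373). Without SCARKO-jsd 2, the high array, the difference was 0.51. In all, 4 of the 13 other substrates had groups that did not overlap, or 30.8%, against 20.5% of all genes. On the brightest probe set 0 of the 13 passed, where 0.484% of all genes were called.

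Upstream of the MAP2 kinases, 0 of 14 MAP3 and TAO kinases and 0 of 14 adaptors and scaffolds passed, where 0.484% of all genes were called. The median differences were -0.04 for the MAP3 and TAO kinases and -0.032 for the adaptors and scaffolds. Ccm2, a scaffold for MAP2K3 activation, was at 10.61, 10.53 and 10.67 in SCARKO-jsd 1, 2 and 3, against 10.34, 10.03 and 10.20 in jsd 1, 2 and 3. It was higher in every SCARKO-jsd array, by 0.41 ± 0.10 (SE; limma, Benjamini-Hochberg adjusted p = 0.225), and had the smallest p of the adaptors and scaffolds. Of these 14, 4 had groups that did not overlap, or 28.6%, against 20.5% of all genes. Besides Ccm2 they were Tab3 (-0.39), Gadd45b (-0.42) and Gadd45g (-0.34), all lower in SCARKO-jsd. Map3k10, a mixed lineage kinase, had a difference of -0.38 ± 0.12 with groups that did not overlap (adjusted p = 0.351). Its 3 other probe sets had differences of -0.56, 0.033 and 0.068, the last 2 with overlapping groups. On the first of these, 1440500_at, SCARKO-jsd 2 was the low array. There SCARKO-jsd 1, 2 and 3 were at 7.37, 6.19 and 7.35, against 7.45, 7.37 and 7.77 in jsd 1, 2 and 3. The mean over the Map3k10 probe sets differed by -0.21 (adjusted p = 0.309).

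Among regulators that turn the p38 kinases off, 0 of 15 phosphatases passed, where 0.484% of all genes were called. The groups overlapped for all 15 phosphatases, while they did not overlap for 20.5% of all genes. Dusp1, a phosphatase of p38 and JNK kinases induced by stress, had the smallest p, with a difference of 0.21 ± 0.12 (SE; limma, Benjamini-Hochberg adjusted p = 0.62), or 0.12 without jsd 1. Of 6 other kinases phosphorylated by p38, which include Mapkapk5 (0.065 ± 0.13, adjusted p = 0.891), all had overlapping groups and differences from -0.04 to 0.069. Of 12 substrate transcription factors, 0 passed, against the same 0.484% of all genes. Mef2a, a factor that p38 activates in muscle, had the smallest p on the brightest probe set, with -0.15 ± 0.08 (adjusted p = 0.596) and groups that did not overlap. The 5 other Mef2a probe sets lay lower by more, with differences from -0.71 to -0.29, and the mean over its probe sets differed by -0.41 (adjusted p = 0.387). SCARKO-jsd 2 was the lowest array on all of these 5 but the dim 1425426_a_at. On 1442623_at, with -0.71 ± 0.66, SCARKO-jsd 1, 2 and 3 were at 8.86, 6.22 and 8.02, against 8.03, 8.16 and 9.03 in jsd 1, 2 and 3.

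Of transcripts that p38 signalling is known to raise, 0 of 15 passed, where 0.484% of all genes were called. A list this short could hardly fall below that share. The median difference was -0.064, against 0.044 over all genes, and 10 of the 15 lay under the dim limit. Il1a, a cytokine gene, was at 4.22, 4.62 and 4.49 in SCARKO-jsd 1, 2 and 3, against 4.77, 5.18 and 4.67 in jsd 1, 2 and 3, which is dim throughout. Its difference was -0.43 ± 0.17 (SE; limma, Benjamini-Hochberg adjusted p = 0.455), or -0.27 without jsd 2. Fos, an immediate early gene chosen after its values were seen, was at 9.16, 8.46 and 8.54 in SCARKO-jsd 1, 2 and 3, against 7.26, 8.36 and 8.57 in jsd 1, 2 and 3. The low array was jsd 1, the groups overlapped, and the difference of 0.65 ± 0.37 (adjusted p = 0.628) was 0.25 without jsd 1 and 0.43 without SCARKO-jsd 1.

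Kinases of the neighbouring MAP kinase branches differed by up to 0.35 in size on their brightest probe sets. Mapk9, which encodes JNK2, was lower on its 3 probe sets, by 0.35, 0.31 and 0.42 on the log2 scale. On the brightest, 1421878_at, it was at 9.99, 10.09 and 9.97 in SCARKO-jsd 1, 2 and 3, against 10.49, 10.30 and 10.32 in jsd 1, 2 and 3, with groups that did not overlap (limma, Benjamini-Hochberg adjusted p = 0.234). Map2k2, which activates the ERK kinases, was at 9.94, 10.23 and 9.99 in SCARKO-jsd 1, 2 and 3, against 9.77, 9.74 and 9.74 in jsd 1, 2 and 3 (difference 0.30 ± 0.10 SE, adjusted p = 0.37). Without SCARKO-jsd 2, the high array, the difference was 0.21. Its other probe set, 1460636_at, had a difference of 0.18 ± 0.12 with overlapping groups (adjusted p = 0.687). Of the 8 other MAP kinases and 4 other MAP2 kinases measured, 0 passed, where 0.484% of all genes were called.

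**Figure D3:**
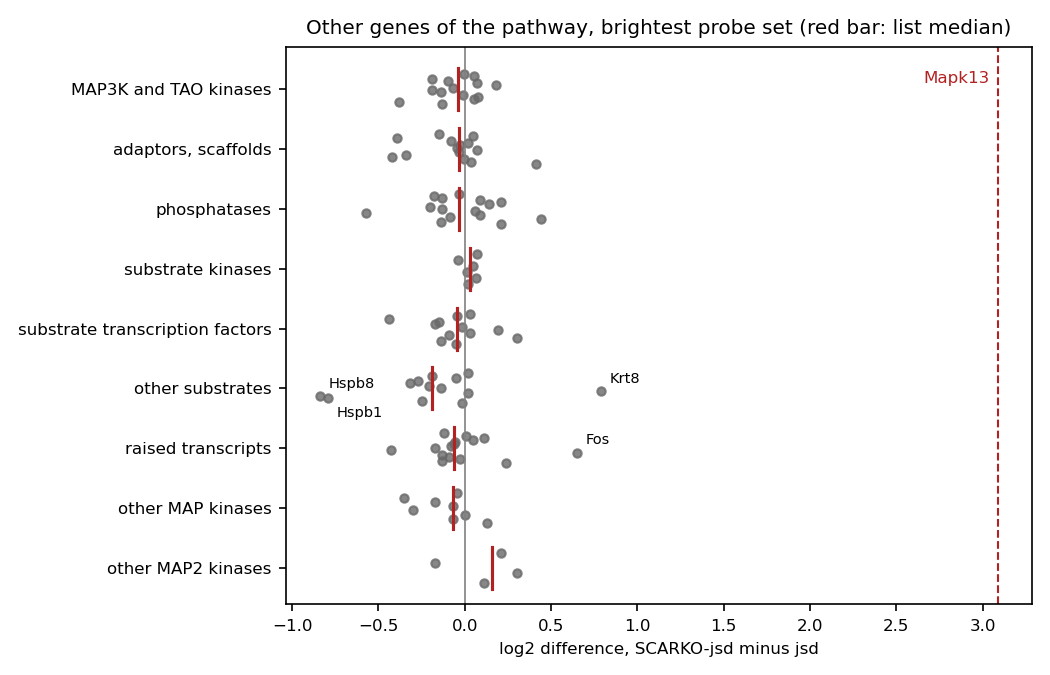
Log2 difference, SCARKO-jsd minus jsd, of the 101 other pathway genes on their brightest probe set (x axis), by role (rows). Points are genes, red bars are list medians, between -0.19 and 0.16, and the dashed line marks Mapk13 at 3.09. Genes past 0.6 in size are named, and the 101 differences lie between -0.84 (Hspb8) and 0.79 (Krt8).

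The genes whose values followed Mapk13 most closely over the 6 arrays were Dct, an enzyme of melanin synthesis, Cacng5, a gamma subunit gene of calcium channels, H2-Q10, which encodes a secreted class I molecule, Fhod3, a formin that assembles actin, Ncmap, a myelin protein gene, and 4930486L24Rik. Likeness was the root mean square difference between log2 values after each gene's mean was subtracted, and it was 0.298 for Dct, 0.301 for Cacng5, 0.368 for H2-Q10, 0.389 for Fhod3, 0.404 for Ncmap and 0.426 for 4930486L24Rik. Pearson's r with Mapk13 over these arrays lay between 0.969 and 0.995, which describes mainly the step between the groups. The same holds for the likeness, since Mapk13 had the largest rise on the array and a near profile needs a rise of similar size. Ranked by rise among all probe sets, Fhod3 was at place 2, Cacng5 at 3, H2-Q10 at 4, Dct at 5, Ncmap at 6 and 4930486L24Rik at 9. Dct was at 8.17, 8.43 and 8.18 in SCARKO-jsd 1, 2 and 3, against 5.27, 5.49 and 5.79 in jsd 1, 2 and 3. Fhod3 was at 7.45, 8.59 and 7.93 in SCARKO-jsd 1, 2 and 3, against 4.89, 4.93 and 5.10 in jsd 1, 2 and 3. SCARKO-jsd 2 was the highest SCARKO-jsd array for Mapk13 and for all 6 of these genes. Among the jsd arrays, jsd 2 was the highest for Mapk13 and 4930486L24Rik, jsd 3 for Dct, Cacng5, Fhod3 and Ncmap, and jsd 1 for H2-Q10.

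**Figure D4:**
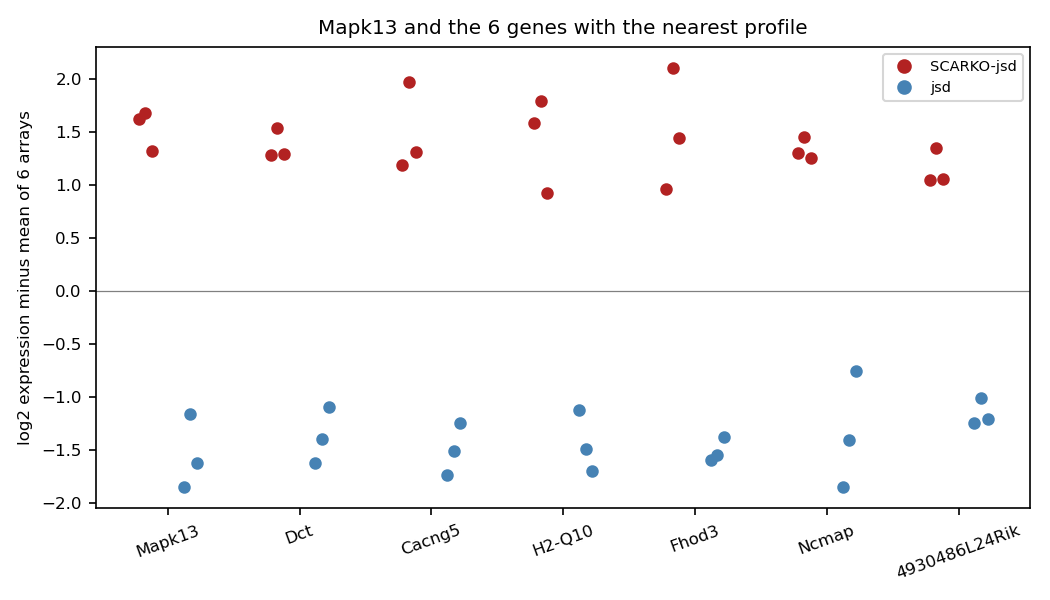
Log2 expression minus each gene's mean over the 6 arrays (y axis) for Mapk13 and the 6 genes nearest to it (x axis), with SCARKO-jsd arrays left of jsd arrays. Points are arrays. The genes were chosen for a profile near that of Mapk13, so in each the 3 SCARKO-jsd arrays lie above the 3 jsd arrays.

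RNA of whole testes does not tell more RNA per cell from more cells of a type. Markers of several cell types were therefore set beside Mapk13, as the mean log2 expression of each list. All 11 measured Sertoli markers lay above the dim limit, and their mean was 10.33 to 10.59 in SCARKO-jsd and 10.74 to 10.93 in jsd arrays. Rhox5, an androgen-dependent gene, was the 1 marker of this list that was called, as lower. Without Rhox5 the mean was 10.82 to 11.04 in SCARKO-jsd and 10.84 to 11.00 in jsd arrays. Of the markers left, Wt1 (-0.48), Inha (0.33) and Amh (0.33) had groups that did not overlap. All 9 measured markers of spermatogonia lay above the limit as well, and their mean was higher in SCARKO-jsd (8.86 to 9.25) than in jsd arrays (8.31 to 8.60). The markers were not alike, with differences from -0.06 (Zbtb16) to 1.06 (Ddx4). By limma 0 of the 9 were called, where 0.484% of all genes were. Groups overlapped for Zbtb16, Kit (-0.03) and Sall4 (0.66), while the others were higher in SCARKO-jsd with groups that did not overlap. Of 12 markers of spermatocytes and spermatids, 9 were dim, and the means of the list overlapped, 5.29 to 5.75 in SCARKO-jsd and 5.19 to 5.41 in jsd arrays.

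The 3 markers of that list above the dim limit were Sycp3 and Sycp1, which encode parts of the synaptonemal complex of meiotic chromosomes, and Prm1, a protamine of spermatids. Sycp3 was at 8.02, 8.34 and 8.13 in SCARKO-jsd 1, 2 and 3, against 6.61, 7.03 and 6.90 in jsd 1, 2 and 3. It rose by 1.31 ± 0.14 (SE; limma, Benjamini-Hochberg adjusted p = 0.0339), a call that was lost with a replicate block and when any array but SCARKO-jsd 2 was left out. Sycp1 was at 7.36, 8.13 and 7.64 in SCARKO-jsd 1, 2 and 3, against 6.84, 6.96 and 6.31 in jsd 1, 2 and 3. Its groups did not overlap either, and the difference of 1.0 ± 0.25 did not pass (adjusted p = 0.224). Prm1 had a difference of 0.077 ± 0.20 with overlapping groups.

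The list means of Leydig cells (13.22 to 13.46 in SCARKO-jsd and 13.16 to 13.39 in jsd arrays), peritubular cells, macrophages and endothelium had overlapping ranges. In these lists 0 markers were called, where 0.484% of all genes were, but single ones moved apart. Groups did not overlap for the endothelial markers Kdr (-0.79 ± 0.17 SE) and Vwf (0.53 ± 0.17), which went opposite ways, and for the peritubular marker Tagln (0.20 ± 0.083). The mean of the 4 measured red blood cell markers did not overlap, with 5.38 to 5.47 in SCARKO-jsd and 5.66 to 5.73 in jsd arrays. Among them Alas2, a heme synthesis gene, had a difference of -1.21 ± 0.10 (SE) and was called (limma, Benjamini-Hochberg adjusted p = 0.0162). Once Alas2 was left out because it was called, the ranges overlapped. The 3 markers that remained were all dim, so they could hardly show a shift. Most markers of epithelia outside the testis tubules were dim. Of epididymal markers, all 7 measured were dim, with a mean of 4.53 to 4.72 in SCARKO-jsd and 4.46 to 4.51 in jsd arrays. Single ones went both ways, with groups that did not overlap for Cst11 (0.43), Lcn5 (0.044) and Adam7 (-0.22). Being dim, these markers too could hardly show a shift. Of 8 markers of rete and duct epithelium, 6 were dim, and the list mean was 6.21 to 6.55 in SCARKO-jsd and 6.19 to 6.30 in jsd arrays. Above the limit were Esr1 (mean 11.68 in SCARKO-jsd and 11.49 in jsd) and Epcam (7.77 and 8.31). Groups did not overlap for Esr1 (0.19), Epcam (-0.53) and the dim Krt8 (0.79), which went different ways. The part of the differences in spermatogonial markers, in the dim epididymal markers and in Sycp3 and Sycp1 in the Mapk13 difference was not tested.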

How the data were processed

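Testis RNA was labelled with biotin and measured on Affymetrix arrays, per the labels' protocols, 3 for SCARKO-jsd and 3 for jsd mice. The authors deposited log2 values for each probe set, made with RMA in affy per the submitters' processing notes. Versions are not given in the sources used here. Such normalization hides a shift shared by most transcripts. Values ran from 2.576 to 14.839 with 0 missing. Nothing in the labels says that arrays came from separate mice beyond the design's count, so p-values measure the spread between these samples.

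The 64 control probe sets were left out. The platform annotation gave 34945 of the remaining 45037 probe sets 1 symbol, 932 several and 9160 none, and probe sets with several named no gene. limma 3.58.1 (lmFit and eBayes, R 4.3.3) was fitted on every probe set without a filter, as a two-sided test with a single genotype term, adjusted by Benjamini-Hochberg over all probe sets. Genes outside the 8 were represented by their brightest probe set, chosen without regard to genotype. The fit was tested on simulated data. No arrays held identical values. Deviations of same-numbered arrays correlated at -0.267, 0.237 and 0.35, so numbers were not taken as pairs.

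Members and lists were chosen with earlier results of these data known. The genes named are all members, the gene with the smallest p in each list and any called, the 6 nearest profiles, the 3 neighbours on each side, and others marked as chosen with their values in view. Alternatives were a filter on dim probe sets, 1 probe set or the mean per gene, median centring, quantile normalization, trend and robust, array weights, a replicate block, other thresholds and each array left out. The number of arrays limits the precision.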

Additional observations from a re-analysis of the deposited data

How the results depend on the processing

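The Mapk13 difference kept its direction under all 14 alternatives and lay between 2.86 with array weights and 3.29 without jsd 2. The call of Mapk13 was lost with a replicate block, where 0 of the 17 probe sets were called, and counts of 0 to 1 were found with 1 array left out. With array weights 2 were called, the second being Mapk14 on 1416703_at, but the estimation of these weights did not converge, and SCARKO-jsd 3 was given 15.6 against 0.161 to 1.24 for the others.

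Counts over the whole array depended on the setting far more. The 126 called probe sets became 390 with the brightest probe set per gene and dim genes left out, 346 with the probe sets of a gene averaged, 63 with median centring, 215 with trend and robust, 8870 with array weights, 15 at an adjusted p of 0.01 and 372 at 0.1. With 1 array left out, between 0 and 627 were called. With a replicate block limma called 0, with 4141 probe sets at an unadjusted p under 0.05, and without jsd 1 it called 0, with 2959. The 88 genes called on their brightest probe set became 390, 346, 46, 153, 4117, 10 and 241 in the same order of settings, 0 with a replicate block and 0 to 364 with 1 array left out.

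Among the other pathway genes, Hspb1 was the 1 gene called with a filter on dim probe sets (limma, Benjamini-Hochberg adjusted p = 0.0491). That is 1.12% of those tested, against 0.755% of all genes tested. It was also the 1 gene called with the brightest probe set per gene and dim genes left out (0.00816), or 1.25% against 3.57%. The same held with the mean of probe sets (0.00913), or 0.990% against 1.90%, and with trend and robust (0.0228), or 0.990% against 0.841%. At an adjusted p of 0.1, 1 of the 101 was called, against 241 of all 18193 genes. With array weights 25 of the 101 were called, 7 higher and 18 lower, or 24.8%, against 22.6% of all genes. With 1 array left out, 0 to 2 were called. The cause of these differences was not tested. Dim probe sets, those of Mapk11 and Mapk12 among them, limit what can be measured.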
